A study of Mus musculus with 6 samples.

Results

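The genes described are 36 genes of the extracellular matrix: collagen chains, matrix glycoproteins, proteoglycans, enzymes that mature or crosslink collagen, and genes used to mark fibroblasts. They were chosen by symbol, and every probe of the array whose annotated gene symbol was one of the 36 was taken, which gave 68 probes for 32 genes. Col6a3, Fbn1, Loxl2 and Ctgf matched no probe and were not analysed here. Of the 32 genes, 28 had a probe above the background floor and were tested among 10501 genes in all, and the 28 tested probes exceeded the floor on each of the 6 arrays, so no gene was tested through 1 age alone. Postn, Fmod, Ddr2 and Col5a2 had no probe above the floor on at least 3 arrays.

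Collagen is secreted as procollagen chains that wind into a triple helix inside the cell with the help of chaperones, is trimmed outside it and is then crosslinked into fibrils or networks. In the heart most fibrillar collagen is made by fibroblasts, while basement membrane collagens surround cardiomyocytes and line vessels, and macrophages take up and remodel matrix and make some of its glycoproteins, fibronectin and SPARC among them. Matrix made in the newborn heart differs from that of older hearts, and fibrillar collagen builds the scar after an infarct.

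The P1 group consisted of 3 arrays of cells from ICR mice whose left anterior descending coronary artery was ligated at postnatal day 1. The P14 group consisted of 3 arrays from ICR mice ligated at day 14. In both groups CD11b+Ly6G- cells, the gate for macrophages and monocytes without neutrophils, were sorted from the heart 3 days after the infarct, from material of mixed sex, and no uninjured heart was in the series. The labels do not say whether arrays came from separate animals, litters or pools, so the p-values rest on array-to-array spread alone, and that spread may be technical.

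Values are probe intensities that the authors had normalized to a common distribution, so that the median intensity was 121 on every array, and 18903 to 18923 of 45281 probes per array exceeded the floor, an intensity of 127. P1 was above P14 for 1094 of the genes and below it for 1011 (limma, adjusted p under 0.05). All 10 myeloid gate and macrophage genes that had a probe were above the floor on at least 3 arrays, Itgam, which encodes CD11b, among them. The sorted material is a bulk sample, in which fewer cells of a type and less RNA per cell cannot be told apart.

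In P1, 10 of the 28 tested matrix genes were higher and 0 were lower, against shares of 10.4% and 9.63% of the whole set of genes at the same threshold. The genes were chosen with earlier results of these data known, so this count is a description and not a test. Of 72 other matrix genes tested, 12.5% were higher and 19.4% lower. The 10 higher of the 28 were the collagen genes Col1a1, Col5a1, Col15a1, Col18a1 and Col6a1, the glycoprotein genes Sparc, Tnc and Thbs2, the collagen chaperone gene Serpinh1 and the fibroblast transcription factor gene Tcf21. Their folds ran from 1.26 for Tnc to 2.76 for Col1a1. At an unadjusted p under 0.05 (limma), 14 of the 28 were higher and 0 lower. The share of all genes at that threshold was not counted, so this count has no background to be read against. The median log2 fold change (P1 minus P14) of the 28 was 0.36, against 0.01 over all genes tested. A positive value was found for 25 of the 28, against 5440 of the 10501 genes tested.

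**Figure D1:**
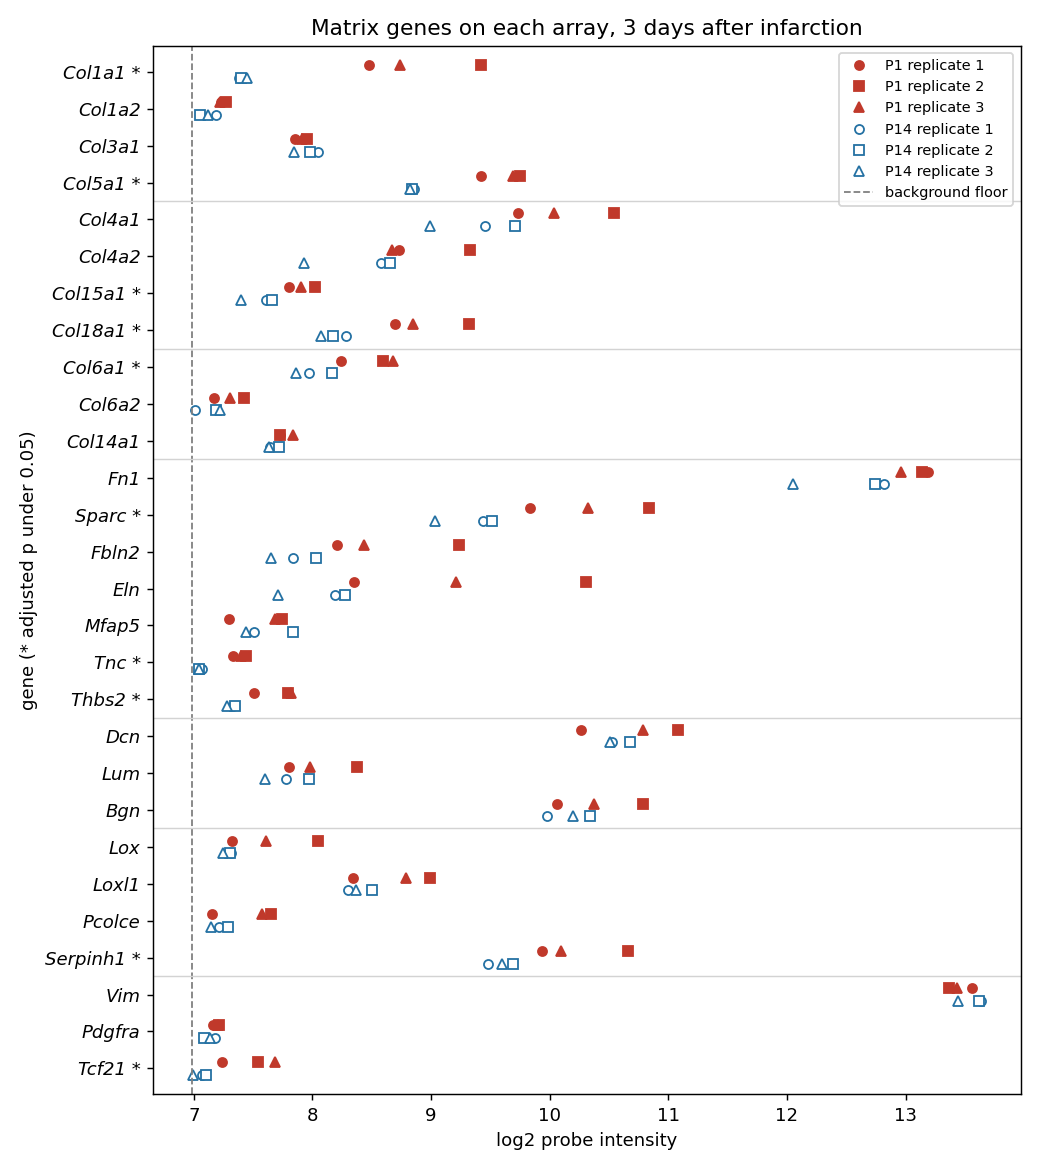
Log2 probe intensity (horizontal axis) of each tested matrix gene on each array, P1 in filled red symbols above P14 in open blue symbols, with the 3 replicates as circle, square and triangle, the background floor as a dashed line, and an asterisk at the 10 genes past the threshold. P1 replicate 2, the filled square, lies furthest right within P1 in 22 of the 28 genes.

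The upstream sequence of 3 of these genes is shown, since the promoters of Col5a1 and Serpinh1 belong to a fibrillar collagen and a collagen chaperone that were higher in P1, and that of Col1a2 to a fibrillar collagen that was not past the threshold. The 250 bases before the annotated start were taken from RefSeq promoters of the mouse build GRCm38.p6, 5′ to 3′ on the gene's strand. Capitals mark matches, on either strand, to GGGCGG (a GC box), CCAAT or TATAAA. The Col5a1 stretch is chr2:27886175-27886424 on the plus strand, that of Serpinh1 chr7:99353240-99353489 on the minus strand, and that of Col1a2 chr6:4505368-4505617 on the plus strand.
Col5a1: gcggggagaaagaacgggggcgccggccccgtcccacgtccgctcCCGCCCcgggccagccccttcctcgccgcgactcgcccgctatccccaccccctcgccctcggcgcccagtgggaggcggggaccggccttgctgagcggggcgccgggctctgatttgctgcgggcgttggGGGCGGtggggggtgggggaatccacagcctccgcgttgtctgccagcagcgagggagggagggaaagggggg
Serpinh1: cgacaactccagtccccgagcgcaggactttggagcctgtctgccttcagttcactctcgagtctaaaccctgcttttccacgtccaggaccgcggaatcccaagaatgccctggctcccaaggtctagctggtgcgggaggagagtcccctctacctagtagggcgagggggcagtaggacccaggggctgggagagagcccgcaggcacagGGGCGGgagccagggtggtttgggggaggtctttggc
Col1a2: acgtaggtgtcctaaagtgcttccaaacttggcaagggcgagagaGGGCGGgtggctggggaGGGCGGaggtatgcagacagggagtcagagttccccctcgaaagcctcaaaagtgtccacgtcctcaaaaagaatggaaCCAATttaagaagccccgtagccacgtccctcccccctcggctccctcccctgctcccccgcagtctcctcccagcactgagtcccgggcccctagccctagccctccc
Col5a1 held 2 GC boxes, Serpinh1 held 1, and Col1a2 held 2 with 1 CCAAT box. RefSeq windows were found for 24 of the 36 genes. A GC box lay in the 250 upstream bases of 4 of the 9 genes higher in P1 that had a window, and of 6 of the 10 tested genes not past the threshold, against 32.7% of 32851 windows of the same length. CCAAT lay in 2 of the 9 and 4 of the 10 genes (33.8% of windows), and TATAAA in 2 of the 9 and 2 of the 10 (12.4% of windows). A gene counted if any of its windows held the match, while the percentages are of single windows, so the counts and percentages are not in like units. A match in these letters describes the sequence and does not show a bound factor.

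Among the fibrillar collagens, 2 of 4 tested genes were higher in P1. Col1a1 encodes the alpha 1 chain of type I collagen, the main fibril of scar. Its intensity was 356, 684 and 427 on P1 replicates 1, 2 and 3, against 167, 169 and 175 on the P14 arrays. The lowest P1 array lay above the highest P14 array, and the 3 P14 arrays lay close together. The P1 mean of Col1a1 exceeded that of P14 by 2.76-fold (a log2 difference of 1.47 with a standard error of 0.208, n = 3 arrays per age, limma adjusted p = 0.00443), the largest fold among the 28 genes, and its call held without any single array (adjusted p at most 0.0198).

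Col5a1 encodes a chain of type V collagen, which nucleates type I fibrils and sets their diameter. Its intensity was 685, 860 and 827 on the P1 arrays, against 464, 458 and 452 on the P14 arrays. Its fold was 1.72, with P1 above (log2 fold change 0.78 ± 0.0936, limma adjusted p = 0.00259), with the lowest adjusted p of the 28 genes, and held without any single array and under each other setting tried.

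The partner chains were measured differently. Col1a2, which encodes the alpha 2 chain that pairs with the product of Col1a1 in type I collagen, had intensities of 150, 155 and 149 on the P1 arrays, against 146, 132 and 139 on the P14 arrays. Every P1 array was above every P14 array, but the log2 fold change of 0.12 ± 0.0669 did not pass (limma adjusted p = 0.246), and both ages were close to the floor of 127. Col3a1, the chain of type III collagen of compliant tissue, had intensities of 231, 248 and 241 in P1, against 265, 253 and 230 in P14, which overlapped (log2 fold change -0.05 ± 0.0762, limma adjusted p = 0.689). For Col5a2, the other common chain of type V collagen, all 5 probes fell below the floor on at least 5 of 6 arrays. A probe near background may not read its transcript, so these values do not set the chains' amounts against each other.

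Among the basement membrane and multiplexin collagens, 2 of 4 tested genes were higher. Col18a1 encodes type XVIII collagen, the source of the fragment endostatin. It read 414, 641 and 461 on the P1 arrays, against 312, 288 and 269 on the P14 arrays, without overlap. It was 1.72-fold higher (log2 fold change 0.78 ± 0.154, limma adjusted p = 0.0131), a call that held without any single array (adjusted p at most 0.0444). With the mean of its 2 kept probes, the dimmer of which exceeded the floor on P1 arrays alone, the log2 fold change was 0.49.

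Col15a1, which encodes type XV collagen, a proteoglycan-like collagen of muscle and capillary basement membranes, read 223, 260 and 239 in P1, against 195, 202 and 168 in P14. It was 1.28-fold higher (log2 fold change 0.36 ± 0.0944, limma adjusted p = 0.0346). The call was lost on removal of any array but P1 replicate 1, with an adjusted p of 0.0527 (without P14 replicate 2) to 0.0967 (without P1 replicate 2).

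Col4a1 and Col4a2 encode the chains of the type IV network found in nearly every basement membrane. In RefSeq they are read in opposite directions on chromosome 8. Their starts lie 21 bases apart, with the first bases of the genes overlapping. Col4a1 read 851, 1496 and 1049 in P1, against 702, 838 and 509.5 in P14, and Col4a2 read 425, 642 and 407 in P1, against 382, 403 and 244 in P14. In both genes P1 replicate 2 was the highest array and P14 replicate 3 the lowest. Neither passed: the log2 fold changes were 0.72 ± 0.232 (limma adjusted p = 0.0649) and 0.52 ± 0.229 (limma adjusted p = 0.149). Col4a1 passed without P1 replicate 1 (0.90, adjusted p = 0.0401) and after normexp background correction (adjusted p = 0.0479). Without P1 replicate 2 the values were 0.50 for Col4a1 (adjusted p = 0.155) and 0.31 for Col4a2 (adjusted p = 0.367), and without P14 replicate 3 that of Col4a2 was 0.29 (adjusted p = 0.333).

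Of the 3 tested genes of collagen VI, a beaded microfibril around cells, and of the fibril-associated type XIV, Col6a1 alone was called. It read 303, 386 and 410.5 in P1, against 252, 287 and 233 in P14, and was 1.42-fold higher (log2 fold change 0.50 ± 0.128, limma adjusted p = 0.0299). The call was lost without P1 replicate 2 or 3 or P14 replicate 1 or 3 (adjusted p 0.0722 to 0.0986) and with the mean of its probes (0.21, adjusted p = 0.329). Col6a2 had a log2 fold change of 0.16 ± 0.0921 (limma adjusted p = 0.269) and Col14a1 one of 0.10 ± 0.0677 (limma adjusted p = 0.358).

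**Figure D2:**
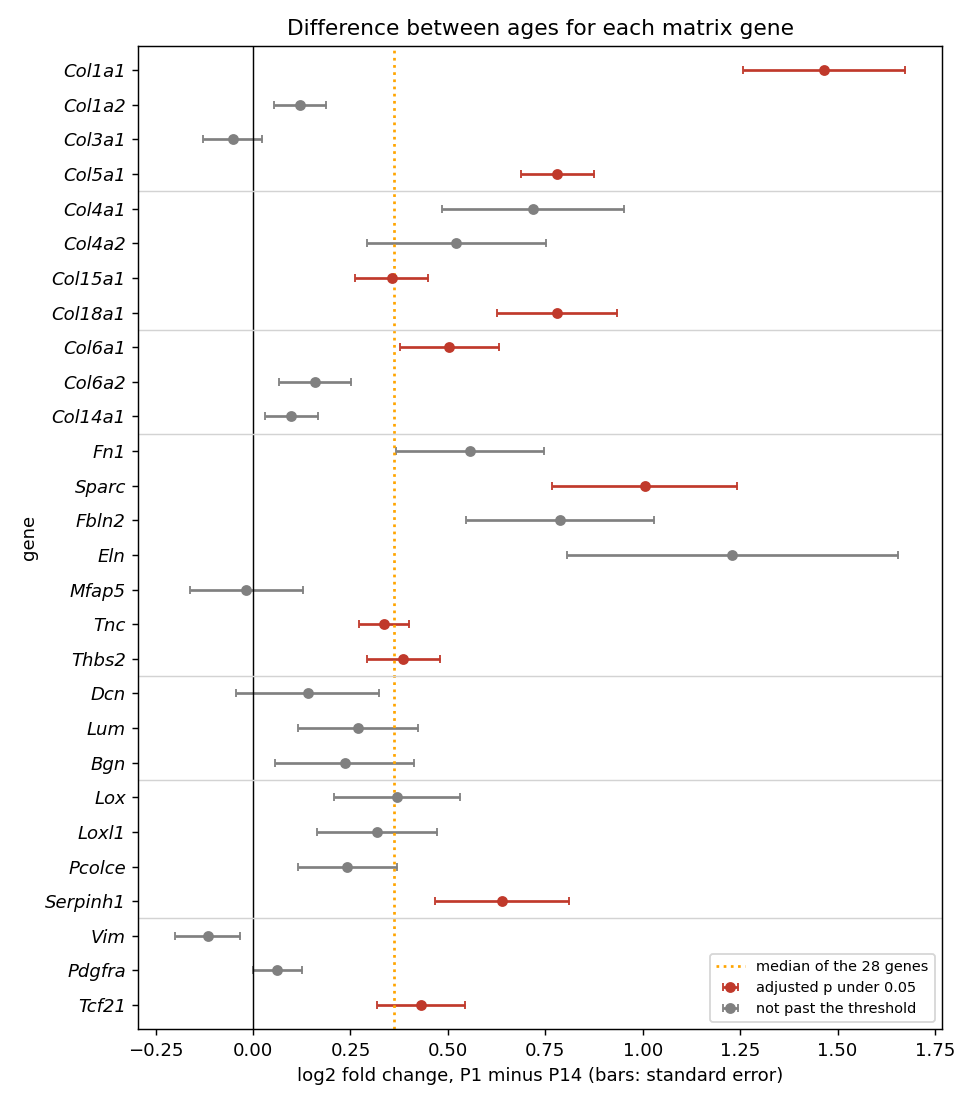
Log2 fold change, P1 minus P14, with limma's standard error (horizontal bars) for the 28 tested matrix genes in the order of their roles, red where the adjusted p was under 0.05 and grey where it was not. The dotted line marks the median of 0.36. Col1a1 stands furthest right at 1.47, and Eln at 1.23 carries the widest error.

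Of 7 tested genes of matrix glycoproteins and elastic fibres, 3 were higher in P1. Sparc encodes a collagen-binding glycoprotein that takes part in fibril assembly. It read 915, 1828 and 1281 on the P1 arrays, against 692, 729.7 and 525 on the P14 arrays. The ages did not overlap, and P1 replicate 2 was the highest and P1 replicate 1 the lowest P1 array. Sparc was 2.01-fold higher (log2 fold change 1.005 ± 0.237, limma adjusted p = 0.0237). The call was lost without P1 replicate 3 or any 1 P14 array (adjusted p 0.0502 to 0.0699) and with the mean of its probes (0.52, adjusted p = 0.101).

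Tnc encodes tenascin C, a glycoprotein made in developing and injured tissue. It read 161, 173 and 169 in P1, against 135, 132 and 132 in P14, a narrow spread at both ages just above the floor. It was 1.26-fold higher (log2 fold change 0.34 ± 0.0640, limma adjusted p = 0.0116) and held without any single array (adjusted p at most 0.0459), but not with the mean of its 3 probes (0.21, adjusted p = 0.0519). Thbs2 encodes thrombospondin 2, a matricellular inhibitor of angiogenesis. It read 182, 222 and 226 in P1, against 161, 163 and 155 in P14, and was 1.31-fold higher (log2 fold change 0.39 ± 0.0930, limma adjusted p = 0.0256). Its call was lost on removal of any array but P1 replicate 1 (adjusted p 0.0571 to 0.0902).

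The other genes of this group were not past the threshold. Eln encodes elastin, the core of elastic fibres, and read 326, 1266 and 592 in P1, against 293, 309 and 209 in P14. All P1 arrays lay above the P14 arrays, but P1 replicate 1 was close to them while P1 replicate 2 stood far above, and the log2 fold change was 1.23 ± 0.425 (limma adjusted p = 0.0790). Without P1 replicate 1 it was 1.70 (adjusted p = 0.0173), and without P1 replicate 2 it was 0.72 (adjusted p = 0.122). Fbln2, which encodes the elastic fibre and basement membrane protein fibulin 2, read 296, 604 and 347 in P1, against 229, 262 and 201 in P14 (log2 fold change 0.79 ± 0.242, limma adjusted p = 0.0552). It passed without P1 replicate 1 (0.997, adjusted p = 0.0311), after normexp background correction (0.94, adjusted p = 0.0339) and with only the probes above the floor on all 6 arrays (adjusted p = 0.0463). Its value was 0.48 both without P1 replicate 2 (adjusted p = 0.0513) and with the mean of its probes (adjusted p = 0.0531).

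Fn1 encodes fibronectin, the adhesive glycoprotein of early wound matrix, which macrophages also make. It read 9334, 9013 and 7990 in P1, against 7239, 6870 and 4252 in P14. It ran in another order than most of the genes: P1 replicate 1 was its highest array, and P14 replicate 3 was far below the others. The log2 fold change was 0.56 ± 0.189 (limma adjusted p = 0.0761). It was 0.31 without P14 replicate 3 (adjusted p = 0.0558) and 0.29 with the mean of its 3 probes (adjusted p = 0.207). Mfap5, a microfibril gene, had one of -0.02 ± 0.145 (limma adjusted p = 0.951). Postn, which encodes periostin, a marker of activated fibroblasts, had 3 probes, and all of them were below the floor on all 6 arrays.

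None of the 3 tested small leucine-rich proteoglycans, which bind collagen fibrils and regulate their width, passed the threshold. Dcn (decorin) read 1231, 2171 and 1765 in P1, against 1474, 1642 and 1457 in P14, so that P1 replicate 1 was the lowest of the 6 arrays and P1 replicate 2 the highest (log2 fold change 0.14 ± 0.184, limma adjusted p = 0.654). Without P1 replicate 2 its sign turned (-0.047). Bgn (biglycan) read 1069, 1766 and 1327 in P1, against 1006, 1299.9 and 1176 in P14 (0.24 ± 0.177, limma adjusted p = 0.405), and Lum (lumican) had a log2 fold change of 0.27 ± 0.155 (limma adjusted p = 0.266).

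Of 4 tested genes that mature or crosslink collagen, Serpinh1 was called. It encodes HSP47, the chaperone of the endoplasmic reticulum that binds folded procollagen. It read 978, 1616 and 1094 in P1, against 714, 826 and 775 in P14, without overlap, and was 1.56-fold higher (log2 fold change 0.64 ± 0.172, limma adjusted p = 0.0364). Its other probe above the floor, in the fit on all probes, had a difference of 0.46 ± 0.0865 (limma adjusted p over probes = 0.0132). The gene's call was lost without P1 replicate 3 or any 1 P14 array (adjusted p 0.0694 to 0.107) and with background subtracted (adjusted p = 0.0527).

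The remaining 3 were not past the threshold. Lox, which encodes the main collagen and elastin crosslinking oxidase, read 159.8, 264 and 195 in P1, against 159, 158 and 152 in P14 (log2 fold change 0.37 ± 0.162, limma adjusted p = 0.148). Loxl1, an oxidase of elastic fibres, had 0.32 ± 0.154 (limma adjusted p = 0.188), and Pcolce, an enhancer of procollagen trimming, 0.24 ± 0.128 (limma adjusted p = 0.224). In each of the 3, P1 replicate 1 lay within or next to the P14 range, and each passed without it (adjusted p 0.0360 for Lox, 0.0222 for Loxl1 and 0.0249 for Pcolce). Without P1 replicate 2 the log2 fold changes were 0.18 for Lox, 0.18 for Loxl1 and 0.15 for Pcolce (adjusted p 0.295, 0.452 and 0.499).

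Among the fibroblast and mesenchymal genes, 1 of 3 tested was higher. Tcf21 encodes a transcription factor of epicardial cells and cardiac fibroblasts, and read 151, 187 and 205 in P1, against 135, 138 and 127 in P14. It was 1.35-fold higher (log2 fold change 0.43 ± 0.114, limma adjusted p = 0.0339), and its call was lost on removal of any array but P1 replicate 1 (adjusted p 0.0747 to 0.102). Pdgfra, a growth factor receptor of fibroblasts, was near the floor at both ages, at 144, 148 and 148 in P1, against 144, 136 and 141 in P14 (log2 fold change 0.06 ± 0.0633, limma adjusted p = 0.545). Ddr2, a collagen receptor of fibroblasts, exceeded the floor on 1 array.

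Vim encodes vimentin, an intermediate filament of mesenchymal cells that leukocytes also make. It read 12052, 10534 and 11040 in P1, against 12739, 12565 and 11153 in P14, which overlapped (log2 fold change -0.12 ± 0.0839, limma adjusted p = 0.381). It was the only gene of the 28 for which P1 replicate 2 was the lowest P1 array.

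Background was left in the deposited intensities, and the folds of dim genes are therefore understated. With the most frequent intensity of 112 subtracted and 16 added before the logarithm, the log2 fold change was 2.32 for Col1a1, 1.15 for Tcf21, 0.96 for Tnc, 0.81 for Thbs2 and 0.66 for Col15a1, each still past the threshold.

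The P1 arrays differed among themselves in these genes more than in the rest of the array. The SD between P1 arrays had a median of 0.26 on the log2 scale over the 28 genes, against 0.11 between P14 arrays. Over all genes tested it was 0.09 in P1, against 0.10 in P14. P1 replicate 2 was the highest P1 array in 22 of the 28 genes and P1 replicate 1 the lowest in 24, where each was so in 32.1% and 32.5% of all genes. In 20 of the 28 the order was replicate 2, then 3, then 1. Within P14, replicate 3 was the lowest array in 20 of the 28 and replicate 2 the highest in 17 (36.9% and 28.8% of all genes). All P1 arrays lay above all P14 arrays in 18 of the 28 genes, where 20.5% of all genes tested did so. The 18 were the 10 called genes with Col1a2, Col4a1, Col4a2, Col14a1, Fn1, Fbln2, Eln and Lox.

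The number of genes called higher moved with the arrays left out. It was 16 without P1 replicate 1, 6 without P1 replicate 2, 4 without P1 replicate 3, 4 without P14 replicate 1, 5 without P14 replicate 2 and 4 without P14 replicate 3. Over all genes tested, the share called higher was 7.87%, 7.61%, 4.91%, 5.89%, 5.47% and 8.77% in the same order. Col1a1, Col5a1, Col18a1 and Tnc kept their calls in all 6 cases. Without a filter on low values, when more genes were tested, the calls of Col6a1, Serpinh1, Sparc and Tcf21 were lost (limma adjusted p 0.0511 to 0.0732). A linear model without moderation kept the calls of Col5a1 and Tnc and lost the other 8.

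Markers of other cell types were set beside these genes, as the mean log2 deviation of a list from its mean over the 6 arrays. For the 28 matrix genes it was -0.02, 0.47 and 0.21 on P1 replicates 1, 2 and 3, against -0.20, -0.12 and -0.34 on the P14 arrays. For 14 tested cardiomyocyte markers of 16 listed it was -0.04, 0.76 and 0.56, against -0.41, -0.42 and -0.45, the same order within P1. Their summed intensity was 7648 to 14786 in P1, against 4584 to 4900 in P14, and 8 of the 14 were higher in P1 and 0 lower (limma), led by Myl2 (log2 fold change 2.40), Myl3 (1.51), Myh6 (1.27) and Actc1 (1.17). The Myh6 call was lost without P1 replicate 3 or any 1 P14 array (adjusted p at most 0.0768). Myh7 was below the floor. Myl7, 1 of the 8, was above the floor on no P14 array, as were Nppb and Ryr2, which were not called. These were tested through P1 alone. The other fibroblast, endothelial, epicardial, myeloid and lymphocyte lists shared this order within P1, with smaller differences between arrays. Endothelial deviations were -0.05, 0.32 and -0.02 on P1 replicates 1, 2 and 3, and myeloid ones -0.09, 0.08 and -0.04. Of these lists, that of lymphocytes (2 genes) alone had every P1 array above every P14 array, as the matrix and cardiomyocyte lists had. The mural, neutrophil and erythroid lists did not share the order. The part of the cardiomyocyte markers in the matrix result was not tested.

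Other fibroblast markers did not differ between the ages in the same way, although they ran in the same order within P1. Their deviations were -0.12, 0.09 and -0.01 on P1 replicates 1, 2 and 3, against -0.04, 0.06 and 0.01 on the P14 arrays. Of 15 listed, 8 were tested, with a summed intensity of 1534 to 1787 in P1, against 1745 to 1907 in P14, so that the ages overlapped with P1 at the low end. Mfap4 was higher in P1 (log2 fold change 0.46), and Pi16 (-0.71) and Gsn (-0.53) were lower. The Mfap4 call was lost without P1 replicate 3 (adjusted p = 0.0604), and that of Pi16 without P1 replicate 3 or P14 replicate 1 or 2 (adjusted p at most 0.0603). Pdgfrb, Fap, Islr, Scara5, Tbx20 and Cthrc1 were below the floor. For the 10 tested endothelial and endocardial markers of 11, 0 were called in either direction (limma), 9 of 10 log2 fold changes were positive, and P1 replicate 2 was again the highest array (0.32, against -0.25 to 0.04 on the others). Nfatc1 (0.15, adjusted p = 0.419) and Esam (0.31, adjusted p = 0.532) were the brightest. Their part in the matrix result was not tested.

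Of the remaining lists, mural and smooth muscle markers had 7 of 9 tested, summed to 2094 to 3554 in P1, against 2466 to 2726 in P14, with Rgs5 lower (-0.51, lost without P1 replicate 1 or P14 replicate 1 or 2, adjusted p at most 0.0610) and Tagln and Cnn1 below the floor. The 2 of 6 epicardial markers tested, Upk3b (0.32, adjusted p = 0.133) and Aldh1a2 (0.02, adjusted p = 0.900), summed to 259 to 330, against 257 to 269. Neutrophil markers (9 of 10 tested) summed to 15564 to 22112 in P1, against 8848 to 12401 in P14, with 8 higher and 1 lower: S100a9 (2.01), Camp (1.59) and Mpo (at least 2.645-fold, P1 mean against the floor) higher and Retnlg (-1.63) lower. They ran in another order than the matrix genes within P1 (deviations 0.44, 0.24 and 0.73). The Camp call was lost without P1 replicate 1 or P14 replicate 1 or 2 (adjusted p at most 0.0654). Mpo and Ngp, both among the 8 higher, were above the floor on no P14 array and so were tested through P1 alone. Among 2 of 8 lymphocyte markers tested, Cd79b was higher (1.05), and the summed intensity, mostly that of Cd79b, was 757 to 804, against 404 to 489. The other marker, Cd3e, was near the floor and not called (-0.03, limma adjusted p = 0.827).

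Myeloid gate and macrophage markers summed to 65458 to 68303 in P1, against 63525 to 69472 in P14, with Csf1r higher (0.82) and Ptprc lower (-0.42). The Ptprc call was lost on removal of any array but P1 replicate 3 (adjusted p at most 0.0739). The 4 of 7 erythroid markers tested summed to 22356 to 29700, against 15734 to 33074, with 0 called (limma), and Hba-a1 (0.26, adjusted p = 0.493) and Hbb-b2 (-0.74, adjusted p = 0.234) the brightest. The part of these lists in the matrix result was not tested either.

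**Figure D3:**
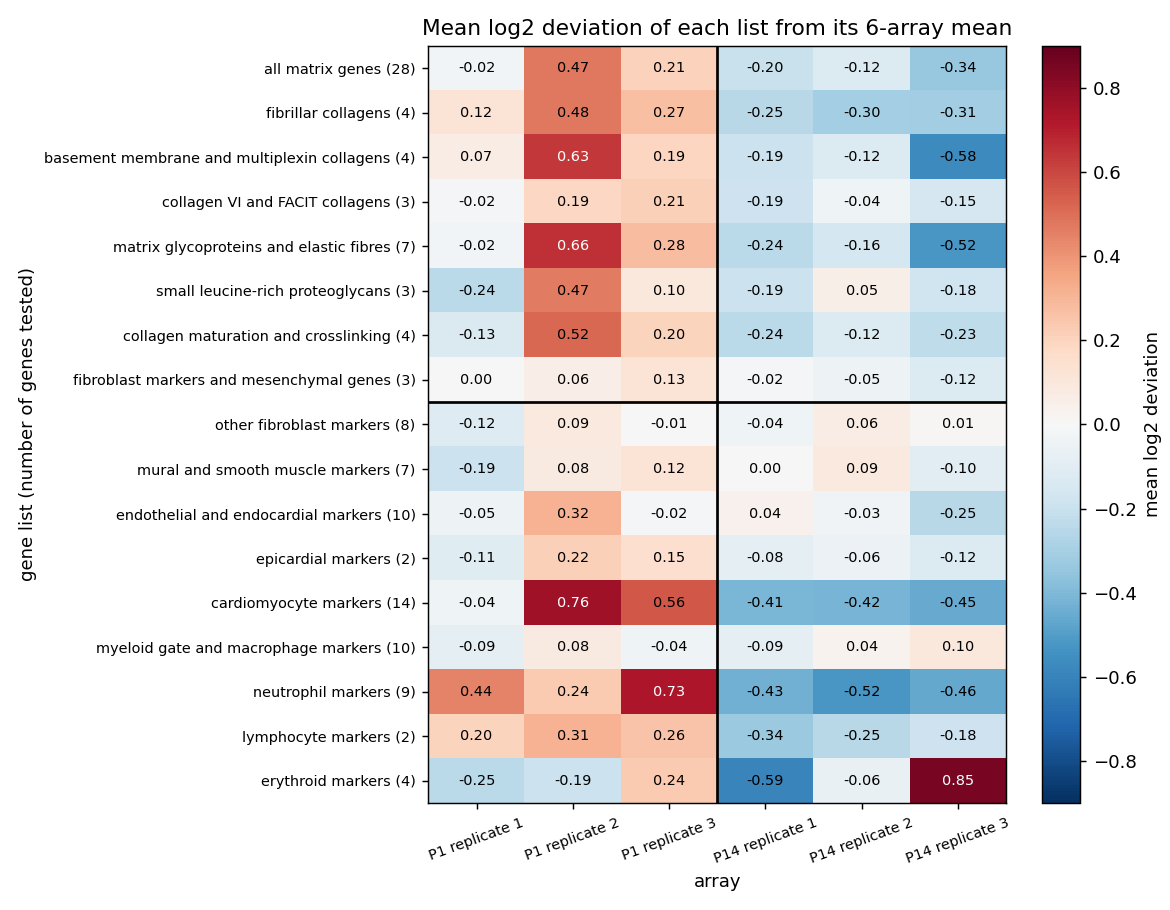
Mean log2 deviation of each gene list from its mean over the 6 arrays, with P1 arrays left of P14 arrays, the matrix genes and their role groups in the upper block, and marker lists of cell types in the lower block. Within P1, replicate 2 is highest for the matrix genes (0.47) and for the cardiomyocyte markers (0.76), and replicate 1 is lowest for both. The same holds for the other fibroblast, endothelial, epicardial, myeloid and lymphocyte lists, and not for the mural, neutrophil and erythroid lists.

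Different probes of a gene did not always read the same difference. Of 44 probes above the floor, fitted with all 19092 such probes of the array, 12 were higher in P1 and 0 lower (limma adjusted p over probes), where 8.23% of all those probes were higher and 8.25% lower. At least 2 probes were above the floor for 13 genes. The dimmer probe of Col18a1 (0.19) exceeded the floor on P1 arrays alone, and that of Pdgfra (-0.08) on P14 arrays alone. Neither was called in this fit. Sparc differed most, with 1.005 and 0.83 for its brighter probes and -0.27 for a dim one, a span of 1.27. The second probe of Col6a1 had -0.09, against 0.50 for the first, and those of Fbln2 had 0.79 and 0.18. The 3 probes of Fn1 had 0.56, 0.29 and 0.01. In Serpinh1 both probes were called. In Tnc 2 of 3 probes were called (0.34 and 0.35) and the third had -0.06, and 4 more lay below the floor. The array annotation used does not say which transcript form each probe reads.

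**Figure D4:**
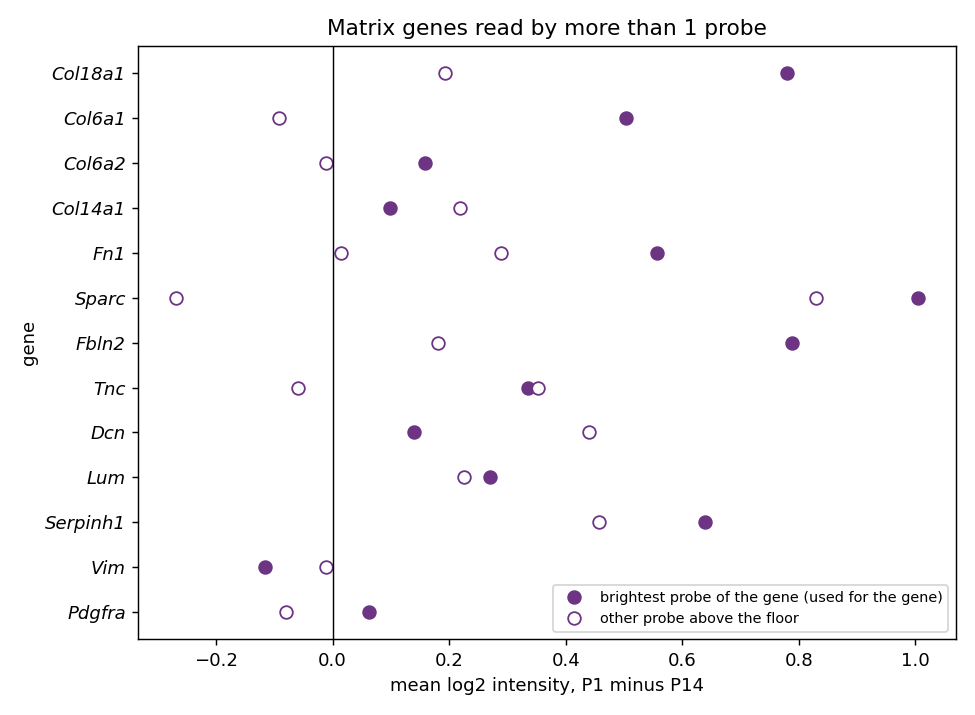
Mean log2 intensity of P1 minus P14 for each probe above the floor, for the 13 matrix genes with at least 2 such probes, with the brightest probe of a gene filled. Sparc shows the widest span, from -0.27 to 1.005.

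Other genes of the matrix were counted from lists that hold none of the 36. Over 134 such genes, of which 72 were tested, 9 were higher (12.5%, against 10.4% of all genes tested) and 14 lower (19.4%, against 9.63%) in P1, and the median log2 fold change was -0.02, against 0.01 over all genes tested. Among other collagen chains 1 of 11 was higher and 1 lower. Col16a1, a fibril-associated chain, had a log2 fold change of 0.40 ± 0.0955 (limma adjusted p = 0.0238), lost without P1 replicate 3 or any 1 P14 array (adjusted p at most 0.0633). Col8a1, a short-chain collagen of vessel walls, was below the floor on every P1 array and at least 1.395-fold lower in P1 (P14 mean against the floor, limma adjusted p = 0.00227). Col8a1, 1 of the 14 lower, was thus tested through P14 alone. Of 31 chains listed, 18 had probes with none above the floor.

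Laminins and other basement membrane genes gave 2 higher and 1 lower of 8. Nid2, which encodes nidogen 2, a linker of the laminin and collagen IV networks, read 8.91, 8.86 and 9.15 on the log2 scale in P1, against 7.85, 7.91 and 7.59 in P14. It was 2.29-fold higher (log2 fold change 1.19 ± 0.111, limma adjusted p = 0.00145), without the high P1 replicate 2 seen in Col4a1. Hspg2 (perlecan), the large basement membrane proteoglycan, was 1.74-fold higher (0.80 ± 0.177, adjusted p = 0.0186; 0.0515 without P1 replicate 3), and Agrn (agrin) was lower (-0.64 ± 0.174, adjusted p = 0.0383), a call lost on removal of any array but P14 replicate 3 (adjusted p at most 0.121). The Hspg2 call was also lost without P14 replicate 2.

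Procollagen processing enzymes gave 1 higher and 3 lower of 16. The crosslinking transglutaminase gene Tgm2 was 1.76-fold lower in P1 (log2 fold change -0.82 ± 0.0860, limma adjusted p = 0.00186), and Plod3, a lysyl hydroxylase of procollagen, 1.43-fold lower (-0.51, adjusted p = 0.00702). P4hb, a prolyl hydroxylase subunit that is also a general disulfide isomerase, was lower (-0.26, adjusted p = 0.0476, up to 0.135 without 1 array) and Crtap, of the prolyl 3-hydroxylation complex, higher (0.47, adjusted p = 0.0412, up to 0.126 without 1 array). Each of these 2 calls held on removal of 1 array, P14 replicate 3 for P4hb and P1 replicate 1 for Crtap.

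Other glycoproteins and proteoglycans gave 4 higher and 5 lower of 22. The 4 with the largest change were Thbs1 (log2 fold change -0.91 ± 0.108, limma adjusted p = 0.00258), Tgfbi, a TGF-beta induced matrix protein (-0.85 ± 0.0866, adjusted p = 0.00174), Srgn, the granule proteoglycan serglycin of leukocytes (-0.78 ± 0.112, adjusted p = 0.00444), and Mfap2, a microfibril gene (0.73 ± 0.179, adjusted p = 0.0265, lost without P1 replicate 2 or 3 or P14 replicate 1 or 2, adjusted p at most 0.0889). Thbs1 and Thbs2 are paralogs, and their probes read differences of opposite sign. Matrix receptors and uptake genes gave 1 higher and 4 lower of 15. Mrc1, the mannose receptor that takes up collagen, was 2.02-fold higher (1.02 ± 0.0997, adjusted p = 0.00153). Sdc4 (-0.66), Itgb5 (-0.48) and Cd44 (-0.48), receptors for fibronectin, vitronectin and hyaluronan, were lower (adjusted p 0.00314, 0.0318 and 0.00994). The Itgb5 call was lost without P1 replicate 2 or 3 or P14 replicate 1 (adjusted p at most 0.101).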

How the data were processed

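Total RNA of the sorted cells was hybridised to Illumina mouse arrays. The intensities the authors deposited are linear and share 1 sorted set of values across the 6 arrays to within 0.00679 on the log2 scale, as quantile normalization leaves them. The lowest was 96.7, so background was still in them. The normalization software: not given in the sources used here. A table of 24 scanner columns named by chip position, which match no label, was not used here, so detection p-values and chip batches were not used.

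Probes were named through GEO's platform annotation: of 45281, 34885 had 1 symbol, 18 several and 10378 none. The floor was 3 SD above the most frequent intensity of 112, and a probe was kept when above it on at least 3 arrays (19092 kept, 16256 with a gene). A gene was represented by its brightest kept probe. Log2 intensities were fitted with lmFit and eBayes of limma 3.58.1 (R 4.3.3), two-sided, with group as the only term and Benjamini-Hochberg adjustment over 10501 genes, threshold 0.05. The same fit ran on all kept probes. The fit was checked on simulated data.

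Members and lists were chosen with earlier results of these data known. All 36 members are accounted for; of each other list, up to 4 called genes with the largest change are named, or the 2 brightest where none was called. The number of arrays limits the precision.

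Alternatives were the mean of a gene's probes, no filter, a filter on all 6 arrays, trend and robust eBayes, weights per array, a block for replicate number, normexp correction (offset 50), cyclic loess, subtraction of the most frequent intensity, an unmoderated linear model, and leaving out each array with probes kept.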

Additional observations from a re-analysis of the deposited data

How the results depend on the processing

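With each array left out in turn, matrix genes higher in P1 numbered 4 to 16, member probes higher 5 to 20, other matrix genes higher 3 to 9 and lower 9 to 14, and all genes higher 516 to 921 and lower 535 to 893. The unmoderated linear model, with few degrees of freedom, called 2 matrix genes, 1 member probe, 2 other matrix genes higher and 5 lower, and 248 genes higher and 260 lower in all. With no filter, over more genes tested, 6 of 32 matrix genes were higher, where 5.17% of all genes were. With trend and robust eBayes 1 member probe, the dim one of Sparc, was lower in P1. Matrix genes lower in P1 numbered 0 under each setting. The sign turned for Pdgfra with the mean of its probes (-0.0086), which read 0.06 and -0.08. The second of these exceeded the floor on P14 arrays alone. The sign also turned for Mfap5 without P1 replicate 1 (0.12) or P14 replicate 2 (0.10, range -0.10 to 0.12). For Dcn it turned without P1 replicate 2 (-0.047, range -0.047 to 0.36). The cause in Mfap5 and Dcn was not tested. Same-numbered arrays of the 2 ages had deviations that correlated at 0.16, 0.07 and 0.13 over genes, each array best with its own number, but not all over 0.1, and the labels give the number no meaning, so it was not treated as a pairing. With the replicate block 15 matrix genes and 19 member probes were higher in P1, where 10.6% of all genes were. The added genes were Col4a1, Col4a2, Eln, Fbln2 and Fn1 (limma adjusted p 0.0198, 0.0315, 0.0396, 0.0173 and 0.0241). The share of all probes called was counted in the main fit alone, so member probe counts under other settings have no share beside them. Signal close to background limits what can be read of the dim genes.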
